A study of Mus musculus with 9 samples.

Results

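The Hox genes are the 39 homeodomain transcription factor genes that lie in 4 clusters in the mouse genome. Those measured here were taken from the authors' table by symbol, as a cluster letter followed by a paralogue number, and 32 of its 18541 genes matched. No measured value entered this matching, although the Hox genes were chosen for study with earlier results of these data known. They comprised 10 genes of the Hoxa cluster on chromosome 6, 9 of Hoxb on chromosome 11, 5 of Hoxc on chromosome 15 and 8 of Hoxd on chromosome 2, each read by 1 Agilent probe. Hoxa11, Hoxb1, Hoxc8, Hoxc11, Hoxc12, Hoxc13 and Hoxd1 were not analysed here. RNA came from mouse dorsal pancreatic epithelium that was microdissected by hand at e12.5, when pancreatic progenitors make up much of this tissue, and each of the 9 samples pooled 3 embryos.

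The samples formed 3 groups of 3, described in the series as littermates. Sox9 heterozygotes were Sox9fl/+; Foxa3-Cre, in which a Cre recombinase transgene named for Foxa3, a gene of the gut endoderm, was used to delete 1 floxed allele of Sox9. Pdx1 heterozygotes carried the Pdx1LacZko allele in place of 1 normal Pdx1 allele. Double heterozygotes carried all of these, so they differed from the Pdx1 heterozygotes by Foxa3-Cre as well as by the floxed Sox9 allele, and the effects of those cannot be told apart. Neither wild-type embryos nor embryos with Foxa3-Cre alone were analysed here. Both targeted genes encode transcription factors that pancreatic progenitors need, and Pdx1 is itself a ParaHox gene, a member of the sister family of the Hox genes.

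Hox genes are known for giving cells of the embryo their position along the head-to-tail axis. Genes at the 3′ end of a cluster, with low paralogue numbers, are in general expressed from further forward and earlier than those at the 5′ end, so that each level of the body holds its own combination. Hox proteins bind DNA together with TALE homeodomain cofactors of the Pbx and Meis families, retinoic acid activates 3′ Hox genes, Cdx factors activate more posterior ones, and Polycomb proteins keep the clusters silent where they are not used. In the gut and its outgrowths much of the Hox expression lies in the mesoderm that surrounds the epithelium, and paralogue group 6 is known from work on the mesoderm of the pancreas.

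RefSeq promoter sequences of build GRCm38.p6 matched 19 of the 32 Hox genes, with 21 start sites. Below are the 250 bases before the start site for 3 genes of the Hoxa cluster on the minus strand, Hoxa2 (chr6:52164832-52165081), Hoxa3 (chr6:52213068-52213317) and Hoxa7 (chr6:52218574-52218823). They are shown because the probes of Hoxa2 and Hoxa3 were brighter, and that of Hoxa7 dimmer, in every double-heterozygote than in every Sox9-heterozygote sample. Capitals mark matches to the Sox motif ACAANG and to the Pbx-Hox motif TGATNNAT, searched on both strands.
Hoxa2: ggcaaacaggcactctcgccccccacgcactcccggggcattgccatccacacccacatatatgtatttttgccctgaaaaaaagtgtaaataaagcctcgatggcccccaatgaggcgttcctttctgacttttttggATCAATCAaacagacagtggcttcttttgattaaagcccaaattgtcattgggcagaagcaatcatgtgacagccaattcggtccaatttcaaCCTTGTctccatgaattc
Hoxa3: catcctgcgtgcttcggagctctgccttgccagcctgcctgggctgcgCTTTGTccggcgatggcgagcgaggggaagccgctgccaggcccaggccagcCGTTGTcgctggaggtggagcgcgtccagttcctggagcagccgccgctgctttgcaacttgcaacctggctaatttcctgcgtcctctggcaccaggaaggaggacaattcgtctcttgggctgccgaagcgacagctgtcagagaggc
Hoxa7: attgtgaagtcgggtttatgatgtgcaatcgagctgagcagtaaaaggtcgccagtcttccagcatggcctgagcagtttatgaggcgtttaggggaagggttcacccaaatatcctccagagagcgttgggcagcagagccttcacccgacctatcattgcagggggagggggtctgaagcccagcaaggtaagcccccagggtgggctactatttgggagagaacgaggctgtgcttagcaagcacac

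In the Hoxa2 window the Sox match lay at positions -18 to -13 from the start site and the Pbx-Hox match at -111 to -104. Hoxa3 held Sox matches at -202 to -197 and at -150 to -145, and the Hoxa7 window held neither string of letters. Over the Hox promoters, 6 of 21 windows (28.6%) held the Sox motif, against 36.3% of all 32851 mouse promoter windows of this length. These were windows of Hoxa2, Hoxa3, Hoxa10, Hoxd3, Hoxd4 and Hoxd11. Hoxa5 and Hoxc4, also brighter in every double-heterozygote than in every Sox9-heterozygote sample, held no Sox match. Hoxa10 and Hoxd3, dimmer by the same measure, held one, and Hoxd13, also dimmer, held none. Hoxa4, Hoxb5, Hoxb7 and Hoxb9, whose probes also separated these groups, had no promoter sequence here. Both groups carried Foxa3-Cre and the floxed Sox9 allele, so no conclusion about Sox9 is drawn from these matches. The Pbx-Hox motif was in 3 Hox windows (14.3%), those of Hoxa2, Hoxb8 and Hoxd11, against 7.68% of all windows. The homeodomain motif TAATTA occurred in 2 windows (9.52%), both of Hoxd11, against 4.84% of all windows, and there it overlapped no other motif. A direct repeat of AGGTCA with a spacer of 5 bases, as retinoic acid receptors bind, was in 0 Hox windows and in 0.00913% of all windows. These matches describe letters in the windows and not binding.

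All 9 arrays had similar overall signals after the authors' normalization, with a median normalized intensity of 347 to 353. Double-heterozygote replicate 3, whose title names both 3 and 4, stood somewhat apart, and its log2 values correlated with those of the other samples at Pearson r 0.98 to 0.992 across genes, against 0.99 to 0.996 among the others. Sox9 had intensities of 294, 294 and 325 in the Sox9 heterozygotes, 239, 198 and 234 in the Pdx1 heterozygotes and 292, 328 and 381 in the double heterozygotes. The Sox9 probe was thus dimmest in the group that, by its label, kept both alleles, and adjusted p was 0.126 for double against Pdx1 heterozygotes. Pdx1, listed as Ipf1, read 1316, 1573 and 1502 in the Sox9, 1132, 1098 and 1080 in the Pdx1 and 1203, 1143 and 1352 in the double heterozygotes. The sources used here do not place these probes relative to the deleted or replaced sequence. Every direction given here is thus one between labelled groups. All 12 epithelial markers lay above the lower quartile of probe signals, as did 15 of 19 markers of mesenchyme, the cells in which Hox genes are also known to act. In bulk RNA, fewer cells of a type and less RNA per cell cannot be told apart.

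Signals of the Hox probes ranged widely. The 3 brightest on average belonged to the middle of the Hoxb cluster. Hoxb7, a trunk Hox gene, read 2539, 1845 and 1678 in the Sox9, 1732, 1662 and 1615 in the Pdx1 and 1656, 1529 and 1322 in the double heterozygotes. Hoxb5, which is active in gut mesoderm and enteric neural crest, read 1357, 1383 and 1465 in the Sox9, 1384, 1515 and 1607 in the Pdx1 and 1526, 1470 and 1504 in the double heterozygotes. Hoxb7 was the only Hox gene whose mean lay above the upper quartile of all probes (1560), and its highest value was in Sox9-heterozygote replicate 1.

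Hoxb6 belongs to the paralogue group known from pancreatic mesoderm. It read 1493, 1395 and 1282 in the Sox9, 1287, 1326 and 1230 in the Pdx1 and 1309, 1135 and 1164 in the double heterozygotes, with the groups overlapping. Its paralogue Hoxa6 was dim in every sample, at 101, 99 and 104 in the Sox9, 99, 105 and 102 in the Pdx1 and 99, 104 and 94 in the double heterozygotes. Hoxc6 read 161, 173 and 112 in the Sox9, 100, 150 and 111 in the Pdx1 and 116, 115 and 115 in the double heterozygotes. The spread of Hoxc6 within both single-heterozygote groups was thus larger than its spread among the double heterozygotes.

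At the other end, the dimmest Hox probes were those of Hoxa13, Hoxa10 and Hoxd10. Hoxa13, a gene of the hindgut and the digits, read 65, 76 and 72 in the Sox9, 72, 79 and 71 in the Pdx1 and 66, 72 and 71 in the double heterozygotes. Hoxa10, known from the lumbar spine and the uterus, read 90, 83 and 75 in the Sox9, 65, 71 and 71 in the Pdx1 and 74, 60 and 68 in the double heterozygotes. Hoxd10, which acts in the hindlimb and lumbar spinal cord, read 83, 70 and 75 in the Sox9, 74, 70 and 74 in the Pdx1 and 76, 67 and 75 in the double heterozygotes. Values of this size lay below the lower quartile of all probes (119). The files carry no detection calls, so how much of such a signal is background was not tested.

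**Figure D1:**
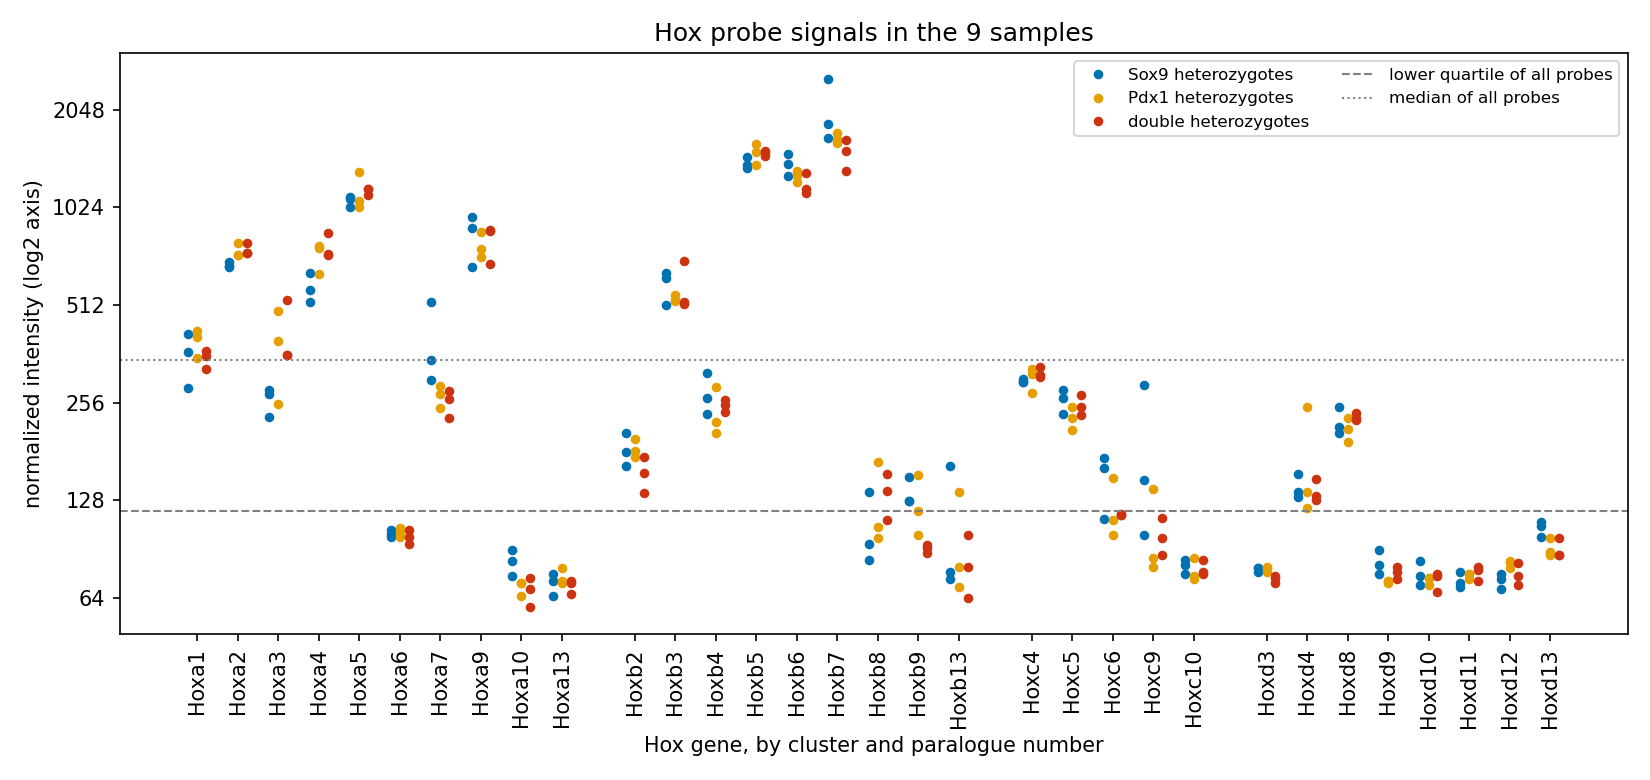
Normalized intensity (log2 axis) of the 32 Hox probes in each of the 9 samples, ordered by cluster and paralogue number, with points coloured by genotype and lines at the lower quartile (119) and the median (347) of all probes. The 8 probes of paralogue groups 10 to 13 all had means under the lower quartile, and the group colours overlap for most genes.

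The dim probes were not spread evenly along the clusters. All 8 measured genes of paralogue groups 10 to 13 had a mean below the lower quartile of all probes, against 6 of 24 genes of groups 1 to 9, namely Hoxa6, Hoxb8, Hoxb9, Hoxc9, Hoxd3 and Hoxd9. Of the clusters, Hoxa and Hoxb had 5 of 10 and 4 of 9 genes above the median of all probes, and Hoxc and Hoxd had 0 of 5 and 0 of 8. Probes differ in how brightly they report a transcript, so this order is one of probe signals and not of transcript amounts between genes. Among the bright anterior and middle genes were Hoxa2, which sets the identity of the second pharyngeal arch, at 669 to 796 over the 9 samples, Hoxa5, needed for lung development, at 1025 to 1313, and Hoxb3 at 511 to 701. Hoxa9, known from blood progenitors, stood out among the higher-numbered genes, at 669 to 955, as the only gene of paralogue groups 9 to 13 above the median.

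Replicate spread of the Hox probes was like that of the array as a whole. The SD of log2 values within groups had a median of 0.12 over the 32 genes, against 0.125 over all probes. It was smallest for Hoxd3 (0.031), at 71 to 80 over the 9 samples. It was largest for Hoxc9 (0.527), a thoracic gene known from spinal motor neurons, and Hoxb13 (0.513), known from the prostate and tail. Hoxc9 read 148, 291 and 100 in the Sox9, 80, 139 and 85 in the Pdx1 and 113, 98 and 87 in the double heterozygotes, and Hoxb13 ranged from 64 to 163 with single high samples in the Sox9 and Pdx1 groups. Sox9-heterozygote replicate 1 held the highest value of 10 of the 32 Hox genes, more than any other sample. The other samples held the highest value of at most 7 each, and double-heterozygote replicate 1 of 0.

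The comparison of double with Sox9 heterozygotes addresses what the Pdx1LacZko allele adds where 1 Sox9 allele is already deleted. No Hox gene passed the test. Hoxa3 and Hoxa4 had higher values, and Hoxa7, Hoxb7 and Hoxb9 lower values, in every double-heterozygote than in every Sox9-heterozygote sample. With limma fitted over all 18541 probes and Benjamini-Hochberg adjustment, 0 of 32 Hox genes had an adjusted p under 0.05, where 0.28% of all probes did. At an unadjusted p under 0.05, 3 Hox genes were higher (Hoxa2, Hoxa3 and Hoxa4), where 14.2% of all probes were. By the same measure 6 were lower (Hoxa7, Hoxa10, Hoxb6, Hoxb7, Hoxb9 and Hoxd13), where 13.5% of all probes were. The authors' deposited table, for which no FDR method is stated in the sources used here, gave an FDR under 0.05 to 3 Hox genes with higher values (12.0% of all genes) and 5 with lower values (11.1% of all genes).

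Nearest to the limma threshold were Hoxb9 and Hoxa4. Hoxb9, a gene that patterns the thoracic skeleton, read 127, 127 and 151 in the Sox9 heterozygotes and 91, 88 and 93 in the double heterozygotes, with 100, 153 and 119 in the Pdx1 heterozygotes. All 3 double heterozygotes were below all 6 single heterozygotes, and the log2 ratio to the Sox9 heterozygotes was -0.57 ± 0.143 (SE), adjusted p = 0.0957 by limma. The mean signal of this probe lay below the lower quartile of all probes. Leaving out each sample in turn moved this ratio between -0.61 and -0.49, and it stayed below 0 each time.

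Hoxa4, which patterns the neck vertebrae, read 570, 641 and 522 in the Sox9, 640, 768 and 779 in the Pdx1 and 735, 732 and 851 in the double heterozygotes. The double heterozygotes were all above the Sox9 heterozygotes, with a log2 ratio of 0.42 ± 0.112 (SE), adjusted p = 0.099 by limma, while they overlapped the Pdx1 heterozygotes. In the authors' deposited table the FDR was 0.00485 for Hoxa4 and 2.7e-04 for Hoxb9. The next gene of the cluster, Hoxa3, is needed for the thymus and parathyroid. It read 231, 272 and 280 in the Sox9, 396, 253 and 489 in the Pdx1 and 358, 358 and 530 in the double heterozygotes, a log2 ratio of 0.65 ± 0.235 (SE) over the Sox9 heterozygotes (adjusted p = 0.132). The highest value was that of double-heterozygote replicate 3, and without it the ratio was 0.46. RefSeq spans of Hoxa3 overlap those of Hoxa4, Hoxa5 and Hoxa6, and which of these transcripts the Hoxa3 probe reports cannot be told apart here.

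**Figure D2:**
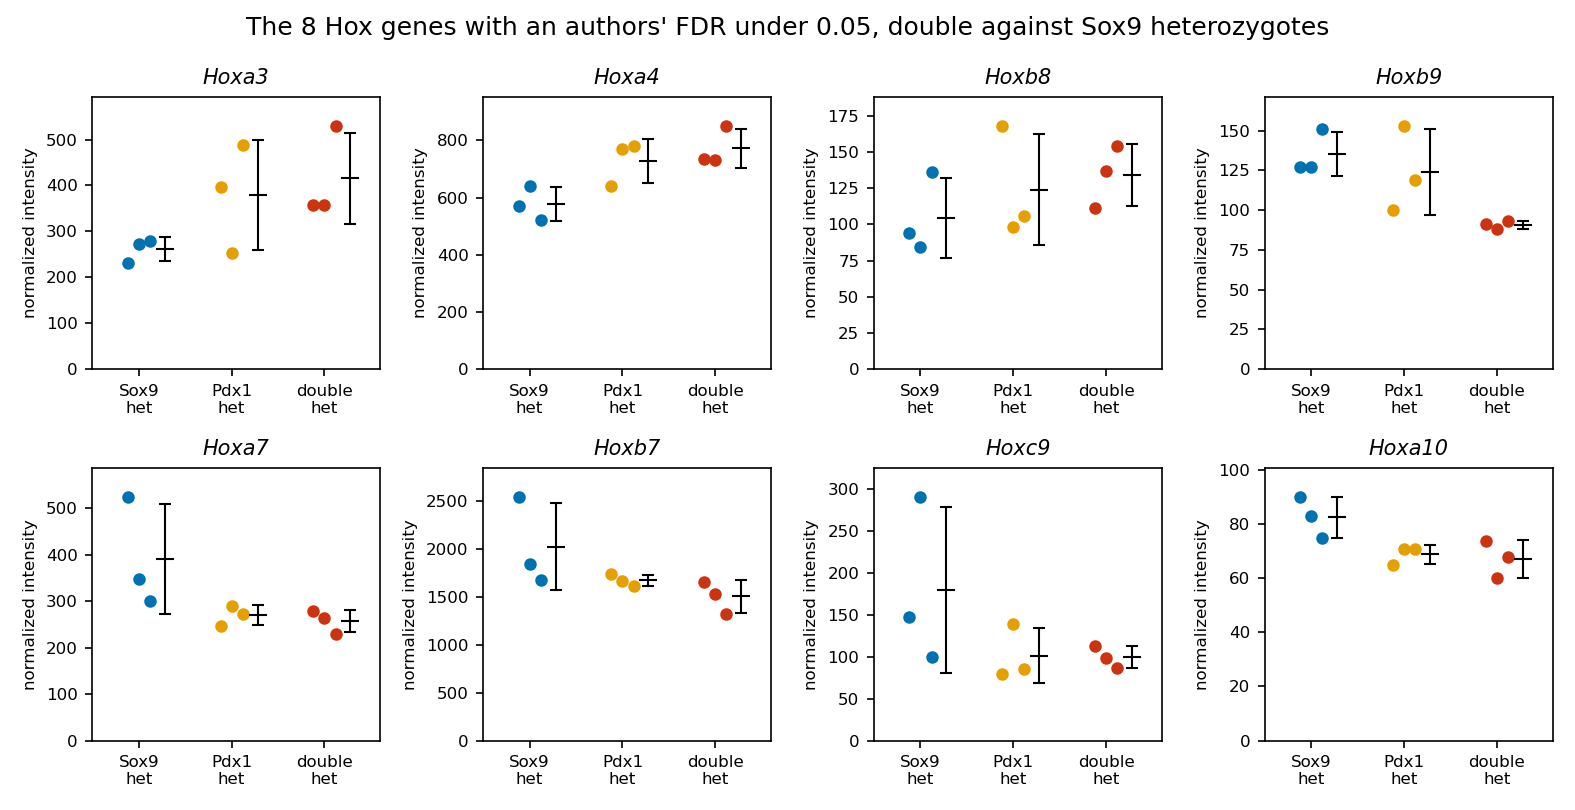
Normalized intensity of the 8 Hox genes with an FDR under 0.05 between double and Sox9 heterozygotes in the authors' deposited table, per sample and by genotype, with the mean and SD of each group (n = 3). For Hoxb9 the 3 double heterozygotes (88 to 93) sit below every single heterozygote, and for Hoxa7 and Hoxb7 the top point is Sox9-heterozygote replicate 1.

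Hoxa7, a trunk gene, read 524, 347 and 300 in the Sox9, 247, 289 and 273 in the Pdx1 and 278, 263 and 230 in the double heterozygotes. The Sox9 heterozygotes were above every other sample, with a log2 ratio of double over Sox9 heterozygotes of -0.57 ± 0.183 (SE), adjusted p = 0.114 by limma. This ratio rested largely on Sox9-heterozygote replicate 1, and without it was -0.33. Its paralogue Hoxb7, listed above, had a log2 ratio of -0.41 ± 0.144 (SE), adjusted p = 0.126, and -0.23 without the same sample. Both group-7 genes were thus high in 1 Sox9-heterozygote sample, which was also the sample with the highest summed signal of the 19 mesenchyme markers (129566, against 109362 to 125124 in the other 8). Vim alone read 75025 there, and the markers did not move together. Vim, Pdgfra, Pdgfrb, Twist2, Lum, Isl1 and Zeb2 had their highest value in this sample. Col1a1, Col1a2, Nkx3-2, Barx1, Tcf21 and Fgf10 had their lowest. Sox9-heterozygote replicate 1 also had the highest summed signal of the 10 endothelial markers (19523, against 15425 to 17598). The same held for the 10 markers of white blood cells (7412, against 5163 to 6893). It was not highest for the epithelial, neuronal and neural crest, mesothelial or erythroid markers. The part of mesenchyme or of any other cell type in the Hoxa7 and Hoxb7 values was not tested.

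Of the other genes with a low FDR in the authors' deposited table, Hoxc9 had the lowest log2 ratio of the 32, -0.72 ± 0.347 (SE), and an adjusted p of 0.204 by limma. Without Sox9-heterozygote replicate 2, which held its single high value, the ratio was -0.30. Hoxb8, a trunk gene known from spinal cord and myeloid cells, read 94, 84 and 136 in the Sox9, 168, 98 and 106 in the Pdx1 and 111, 137 and 154 in the double heterozygotes, and the groups overlapped (log2 ratio 0.375, adjusted p = 0.305). Without Sox9-heterozygote replicate 2 the Hoxb8 ratio was 0.232, and without replicate 3 it was 0.58. Hoxa10 had a log2 ratio of -0.30 ± 0.099 (SE), adjusted p = 0.119, at signals among the dimmest on the array. Hoxa3, Hoxa10, Hoxb8 and Hoxc9 are described because of their FDR in the authors' deposited table and Hoxb7 also because it was bright, and the choice of the 8 genes plotted was made after their values were seen.

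Counted by sample, 6 Hox genes were higher in all 3 double heterozygotes than in all 3 Sox9 heterozygotes, among 18.6% of all probes. These were Hoxa2, Hoxa3, Hoxa4, Hoxa5, Hoxb5 and Hoxc4, all of paralogue groups 2 to 5. Hoxa5, Hoxb5 and Hoxc4 had small log2 ratios, of 0.106, 0.098 and 0.084. Another 6 were lower without overlap, among 16.7% of all probes, and these were Hoxa7, Hoxa10, Hoxb7, Hoxb9, Hoxd3 and Hoxd13. For a single gene, such a separation of 3 from 3 samples has an exact two-sided permutation p of 0.1, the smallest this design allows. The shares of Hox genes in both directions were near those of all probes. With quantile normalization 4 Hox genes were higher without overlap (18.5% of all probes), with Hoxb5 and Hoxc4 lost. With median centring it was also 4 (17.4% of all probes), with Hoxa5 and Hoxb5 lost. The same 6 genes were lower under both (16.9% and 18.5% of all probes). The median log2 ratio over the 32 genes was -0.041, against -0.001 over all probes, with 10 genes above 0 and 22 below.

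Beside these Hox values, other markers differed between the same groups. The summed signal of 15 markers of neurons and neural crest, cells in which Hox genes are active, was 5452 to 5634 in the double heterozygotes, 6067 to 6428 in the Sox9 and 5738 to 6650 in the Pdx1 heterozygotes. Against the Sox9 heterozygotes 8 of the 15 were lower (13.5% of all probes) and 1, Hand2, was higher (14.2% of all probes) at an unadjusted p under 0.05. Of these markers, Ret, a receptor of enteric neural crest, was dim in every sample (81 to 95). The 7 mesothelial markers summed to 5294 to 5759 in the Sox9, 6473 to 6719 in the Pdx1 and 6345 to 7435 in the double heterozygotes, and the 12 epithelial ones to 151121 to 154859, 144228 to 162188 and 157433 to 170764. Between double and Sox9 heterozygotes, 5 epithelial markers were higher (18.6% of all probes) without overlap. By this measure 2, Cdh1 and Foxa2, were lower (16.7% of all probes). Krt19 was the only one of the 12 to pass there (adjusted p = 0.0326 by limma). Of the mesothelial markers, Krt19 and Tcf21, which also stand in the epithelial and the mesenchymal list, had log2 ratios of 0.84 and 0.27 for double over Sox9 heterozygotes, while Wt1, Msln, Lrrn4 and Gpm6a had -0.225, -0.324, -0.151 and -0.236, and the median of the 7 was -0.151. The summed mesenchyme signal overlapped between all 3 groups, although 2 of its 19 markers were higher (18.6% of all probes) and 3 lower (16.7% of all probes) without overlap in the double than in the Sox9 heterozygotes. The part of these cell types in the Hox values was not tested.

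The comparison of double with Pdx1 heterozygotes asks what Foxa3-Cre with the floxed Sox9 allele adds to the Pdx1LacZko allele. Here the Hox genes lay close together. Hoxb9 was lower, with a log2 ratio of -0.43 ± 0.143 (SE) and all 3 double heterozygotes (88 to 93) below the Pdx1 heterozygotes (100 to 153), but its adjusted p was 0.227 by limma, and the ratio was -0.27 without Pdx1-heterozygote replicate 2. By the adjusted p of limma 0 of 32 Hox genes passed, where 0.0917% of all probes did. At an unadjusted p under 0.05, 0 Hox genes were higher (7.71% of all probes) and 1, Hoxb9, was lower (8.56% of all probes). The authors' deposited table gave an FDR under 0.05 to 0 Hox genes with higher values (8.31% of all genes) and to 1 with lower values, Hoxb9 with 0.00933 (8.94% of all genes).

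The second gene nearest the threshold was Hoxb2, which patterns hindbrain motor neurons. It read 206, 181 and 163 in the Sox9, 198, 174 and 182 in the Pdx1 and 155, 174 and 135 in the double heterozygotes, a log2 ratio of -0.26 ± 0.12 (SE) against the Pdx1 heterozygotes (adjusted p = 0.318), with the groups touching at 174. Without overlap, 1 Hox gene was higher, Hoxd9, among 11.6% of all probes, and 2 were lower, Hoxb9 and Hoxd3, among 11.4% of all probes. Hoxd9 and Hoxd3 were both dim, and their groups differed by few units, at 71 to 72 against 73 to 80 for Hoxd9 and at 77 to 80 against 71 to 75 for Hoxd3. Without double-heterozygote replicate 3, 2 Hox genes were higher and 4 lower without overlap, among 15.5% and 13.8% of all probes. The log2 ratios of the 32 genes ran from -0.43 to 0.16, with 16 above and 16 below 0 and a median of -0.001, against 0.01 over all probes.

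The comparison of Sox9 with Pdx1 heterozygotes sets the 2 single genotypes side by side. It shares the Sox9 heterozygotes with the first comparison, so the same high or low Sox9-heterozygote samples enter both, and it shares the Pdx1 heterozygotes with the second. Hoxa7 was higher in all Sox9 than in all Pdx1 heterozygotes, by a log2 ratio of 0.495 ± 0.183 (SE), and Hoxa4 lower by a log2 ratio of -0.335 ± 0.112 (SE), its groups overlapping by 1 intensity unit (641 against 640). The adjusted p was 0.674 for Hoxa7 and 0.579 for Hoxa4 by limma. Without Sox9-heterozygote replicate 1, Hoxa7 had a log2 ratio of 0.26. The number of Hox genes with an adjusted p under 0.05 was 0 of 32 by limma, where 0.253% of all probes passed.

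At an unadjusted p under 0.05, 4 Hox genes were higher in the Sox9 heterozygotes (Hoxa7, Hoxa10, Hoxd9 and Hoxd13), where 3.51% of all probes were. The share of Hox genes was thus above that of all probes, and 3 of the 4 had dim probes. The gene that was lower by this measure was Hoxa4, 1 of 32, where 2.67% of all probes were. The same 4 higher genes were also those whose groups did not overlap (6.54% of all probes), and Hoxa2 and Hoxd12 were the 2 that were lower without overlap (6.04% of all probes). Hoxa10, Hoxd9 and Hoxd13, a gene of the digits, all lay below the lower quartile of probe signals. Hoxd13 read 107, 110 and 99 in the Sox9, 89, 87 and 98 in the Pdx1 and 98, 87 and 87 in the double heterozygotes, so its Sox9 and Pdx1 groups were 1 unit apart. Over the 32 genes the median log2 ratio was 0.056, against 0 over all probes, with 17 above and 15 below 0. The authors' deposited table has no FDR for this pair of groups.

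**Figure D3:**
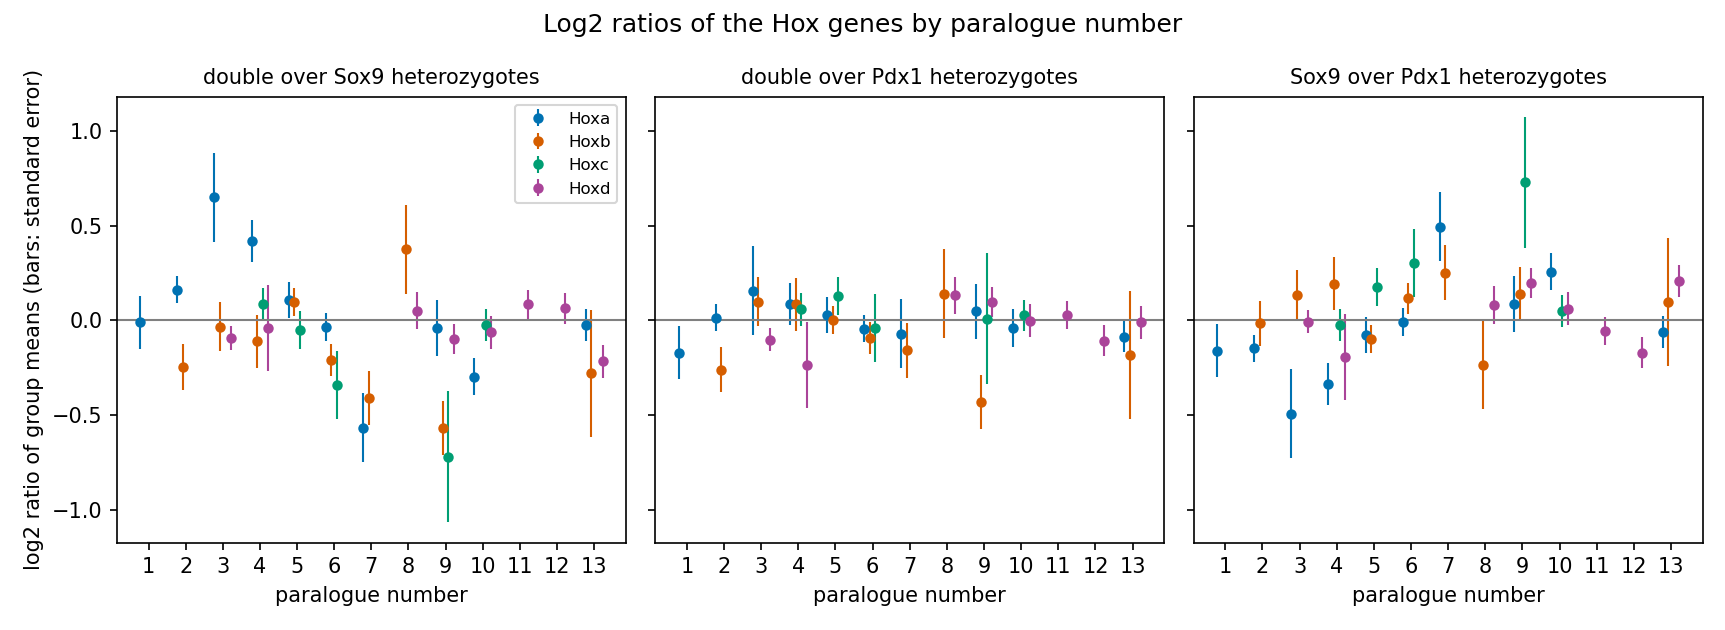
Log2 ratio of group means (points) with its standard error from limma (bars) for each Hox gene by paralogue number, in a panel for each comparison and coloured by cluster. In double over Sox9 heterozygotes Hoxa2, Hoxa3 and Hoxa4 lie above 0 and Hoxa7, Hoxb7, Hoxb9 and Hoxc9 below it, while in double over Pdx1 heterozygotes the points stay between -0.43 and 0.16.

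Read along the clusters, the ratios of double over Sox9 heterozygotes were above 0 for 2 of 6 genes in paralogue groups 1 to 3, 6 of 14 in groups 4 to 8 and 2 of 12 in groups 9 to 13. Their Spearman correlation with the paralogue number over the 32 genes was -0.278, given as a description since the genes share the same samples, and it was -0.129 without Sox9-heterozygote replicate 1. For double over Pdx1 heterozygotes it was -0.103, which turned to 0.135 without double-heterozygote replicate 3, and for Sox9 over Pdx1 heterozygotes it was 0.328. By cluster, the median log2 ratio of double over Sox9 heterozygotes was -0.018 in Hoxa, -0.209 in Hoxb, -0.05 in Hoxc and -0.052 in Hoxd. Within Hoxa, the ratios of Hoxa3, Hoxa4, Hoxa5, Hoxa6 and Hoxa7 were 0.65, 0.421, 0.106, -0.035 and -0.57 in that order. In Hoxd, where 6 of 8 probes were below the lower quartile, the ratios stayed between -0.22 and 0.08.

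The partners with which Hox proteins bind DNA were measured on the same arrays, 11 of 11 genes of the TALE family. Meis2, listed under the older symbol Mrg1, encodes a cofactor of Hox and Pbx proteins. It read 4067, 4536 and 4634 in the Sox9, 6169, 4815 and 4983 in the Pdx1 and 2705, 3277 and 2811 in the double heterozygotes. The double heterozygotes were below all single heterozygotes, and Meis2 fell against the Pdx1 heterozygotes by a log2 ratio of -0.86 ± 0.111 (SE), adjusted p = 0.0456 by limma. It was the only TALE gene of 11 to pass in any of the 3 comparisons. Its adjusted p was 0.0697 with replicate number as a block and 0.0501 to 0.123 when each of the 9 samples was left out in turn, so the call was lost in all of these. Against the Sox9 heterozygotes the log2 ratio of Meis2 was -0.59 (adjusted p = 0.0779).

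Meis1, its paralogue, read 835, 831 and 810 in the Sox9, 984, 820 and 875 in the Pdx1 and 696, 605 and 613 in the double heterozygotes. Pbx3, a DNA-binding partner of Hox proteins, read 159, 168 and 167 in the Sox9, 195, 230 and 154 in the Pdx1 and 139, 147 and 137 in the double heterozygotes. In both genes every double heterozygote was below every single heterozygote, with log2 ratios against the Pdx1 heterozygotes of -0.48 for Meis1 (adjusted p = 0.0959) and -0.43 for Pbx3 (adjusted p = 0.2). Pbx2 had the other order, at 1214, 1285 and 1239 in the Sox9, 1205, 1280 and 1402 in the Pdx1 and 1514, 1476 and 1603 in the double heterozygotes (adjusted p = 0.208 against the Pdx1 heterozygotes). Over the 11 genes, 1 was higher (11.6% of all probes) and 5 lower (11.4% of all probes) without overlap against the Pdx1 heterozygotes, and the median log2 ratio was -0.07. Meis1, Pbx2 and Pbx3 were chosen for description after their values were seen.

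**Figure D4:**
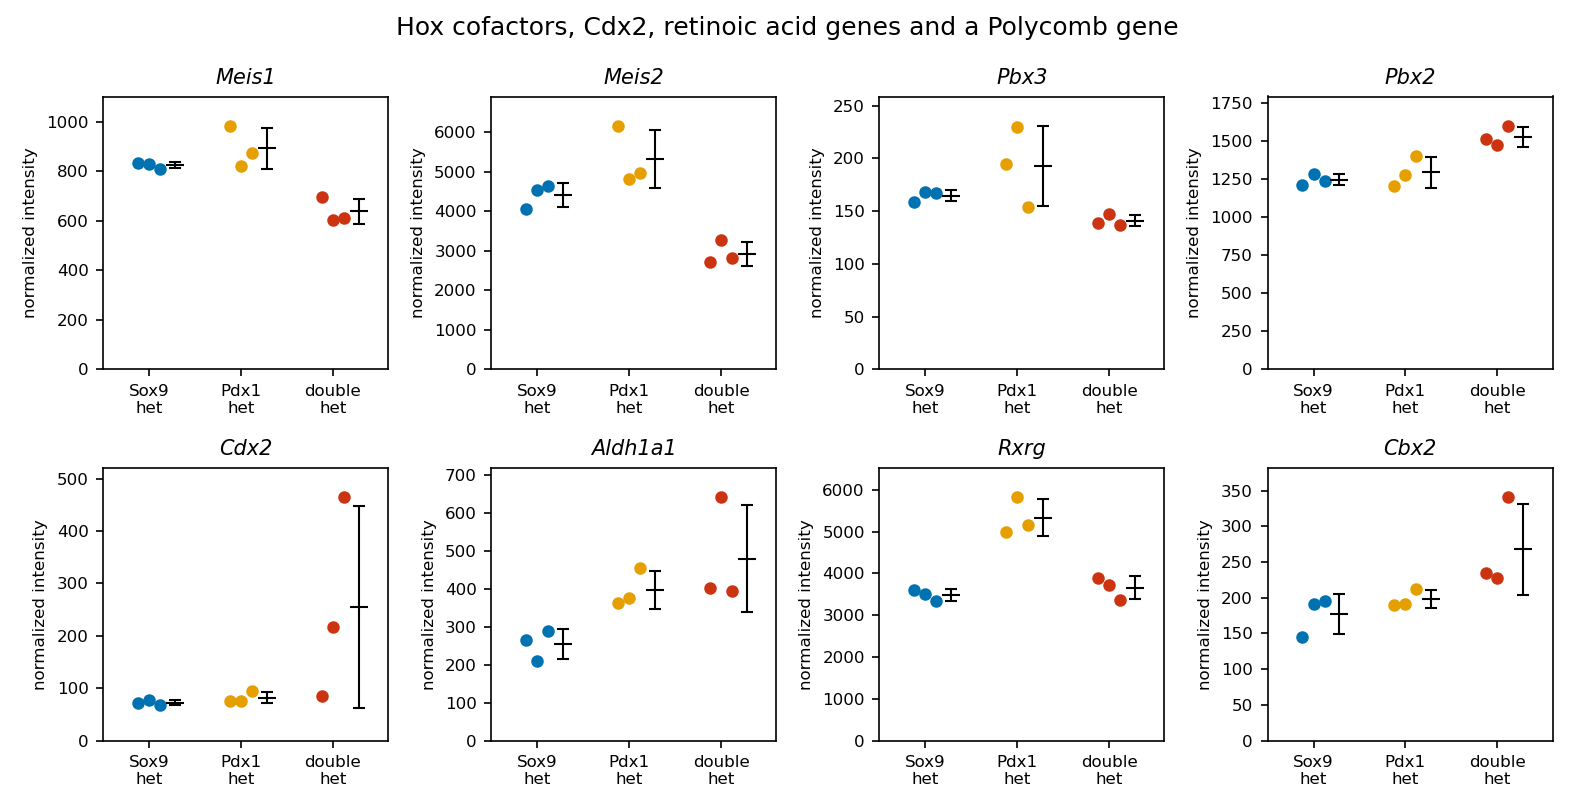
Normalized intensity per sample by genotype, with group mean and SD (n = 3), of the Hox cofactors Meis1, Meis2, Pbx2 and Pbx3, the ParaHox gene Cdx2, the retinoic acid genes Aldh1a1 and Rxrg and the Polycomb gene Cbx2. Meis2 in the double heterozygotes (2705 to 3277) lies below all single heterozygotes, and the 3 double heterozygotes of Cdx2 spread from 85 to 465.

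In the sister family of the Hox genes, 3 of 6 ParaHox genes were measured (Pdx1, Cdx2 and Gsx1), and 0 passed by limma. Cdx2, which sets intestinal identity and is an activator of posterior Hox genes, read 72, 77 and 67 in the Sox9, 75, 76 and 94 in the Pdx1 and 85, 216 and 465 in the double heterozygotes. The double heterozygotes thus differed among themselves by more than the single heterozygotes did, with a log2 ratio over the Sox9 heterozygotes of 1.51 ± 0.469 (SE), adjusted p = 0.111.

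Of 17 genes for the supply, removal and reception of retinoic acid, 16 were measured. Rxrg, a receptor that pairs with the retinoic acid receptors, read 3615, 3510 and 3337 in the Sox9, 4999, 5832 and 5165 in the Pdx1 and 3889, 3728 and 3367 in the double heterozygotes. The Pdx1 heterozygotes were above all other samples, and Rxrg was lower in the Sox9 than in the Pdx1 heterozygotes by a log2 ratio of -0.61 ± 0.081 (SE), adjusted p = 0.021 by limma, the only pass of the 16 genes in any comparison. The adjusted p was 0.059 with replicate number as a block and 0.0144 to 0.107 when samples were left out in turn, with the call lost in 6 of 9. Aldh1a1, an enzyme that makes retinoic acid, read 265, 211 and 288 in the Sox9, 363, 376 and 455 in the Pdx1 and 402, 643 and 394 in the double heterozygotes, with an adjusted p of 0.0916 for double over Sox9 heterozygotes. The RefSeq Hox windows held no match to the receptor repeat, as given above.

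Among 22 Polycomb and trithorax genes, which keep Hox clusters off or on, 0 passed in any of the 3 comparisons by limma. Between double and Sox9 heterozygotes 6 were higher (14.2% of all probes) and 1 lower (13.5% of all probes) at an unadjusted p under 0.05. Cbx2, a Polycomb gene whose loss shifts vertebral identity in mice, read 145, 191 and 195 in the Sox9, 190, 191 and 212 in the Pdx1 and 235, 227 and 341 in the double heterozygotes, which were the highest of the 9 samples (log2 ratio 0.58 over the Sox9 heterozygotes, adjusted p = 0.106). Of 24 chromosomal neighbours and non-coding genes of the clusters 15 were measured and 0 passed in any comparison by limma, with 3 higher (14.2% of all probes) and 0 lower (13.5% of all probes) at an unadjusted p under 0.05 between double and Sox9 heterozygotes. Those 3 were Cbx5, Calcoco1 and Smug1. Aldh1a1, Cbx2 and these neighbours were named after their values were seen.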

How the data were processed

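Values per sample came from the value table the authors deposited, with 1 normalized intensity for each of 9 samples and each probe. They are shown on the linear scale as deposited, and log2 values were computed from them for the fits. The label was Cy3 with 1 colour, per the labels' protocols. Gene symbols, mean log2 ratios and FDR values (q-values) came from the authors' deposited table. Its log2 ratios equal the differences of group means of the log2 values computed here within 1e-06. The sources used here do not state the normalization of the arrays, the choice of probe per gene or the FDR computation. Limma is named among the tools, per the submitters' processing notes, with no role or version. The same table holds 9 columns named by array that matched no sample label, and these were not used, so slides could not be set as blocks.

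All 18541 probes were fitted with limma 3.58.1 in R 4.3.3 (eBayes with trend) over the 3 groups of 3 samples, with no filter and no covariate. P-values were two-sided and adjusted by Benjamini-Hochberg over all probes, with a threshold of 0.05, and the procedure was tested on simulated data. With 3 arrays a group, their number limits the precision. The labels do not say whether the pools of 3 embryos came from separate litters. Whether replicate numbers pair the samples was not settled: 4 of 9 same-numbered pairs had deviations from group means correlated above 0.1 (r -0.177 to 0.239). A block by replicate number was therefore kept as an alternative. Alternatives were another normalization, filter, variance prior, sample set, threshold or block.

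Described in full were Hox genes that passed, the 3 brightest and 3 dimmest, the 2 nearest the threshold per comparison, Hoxa6, Hoxb6, Hoxc6, members of related lists that passed, and Sox9 and Pdx1. The Hox genes and lists were chosen with earlier results of these data known. Current symbols matched 17183 genes through RefSeq. Some members of the related lists are not reported here.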

Additional observations from a re-analysis of the deposited data

How the results depend on the processing

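No Hox gene passed an adjusted p under 0.05 in any comparison with limma under a replicate block (0 in each of the 3), quantile normalization, median centring, a filter on dim probes, another variance prior, a fit on only the 6 samples compared, or without any one sample (0 to 0 in each). At a limma adjusted p under 0.1, 2 Hox genes passed between double and Sox9 heterozygotes (Hoxa4 and Hoxb9). At the stricter cut of 0.05 on the FDR the authors deposited, 8 passed in that comparison. By the same cut 1 (Hoxb9) passed between double and Pdx1 heterozygotes. The cause of the gap to the authors' FDR was not tested. The 17 Hox ratios followed had an unadjusted limma p or an authors' FDR under 0.05 in these same data. Of their 263 alternative values, 263 kept their direction and stayed on their side of the threshold. Ratios chosen this way tend to keep their direction, and the block, filter and variance prior leave a ratio unchanged. The count is therefore no independent support for these directions. Over all probes, the 52, 17 and 47 passing probes (double against Sox9, double against Pdx1, Sox9 against Pdx1) became 56, 7 and 13 with the replicate block, 82, 58 and 55 with the dim filter, 3, 2 and 53 with only the 6 samples, 887, 73 and 68 at 0.1, and 4, 1 and 6 at 0.01. Without 1 sample they ran from 3 to 57, 1 to 8 and 4 to 66, and the authors' FDR under 0.05 passed 4292 and 3199 in the first 2 comparisons. Pairing by replicate number was not settled. By deviations from group means, and among samples of other genotypes only, 6 of 9 samples correlated best with a sample of their own number. The counts of genes without overlap and the correlation with paralogue number were added after seeing the data, and the latter turned from -0.103 to 0.135 for double over Pdx1 heterozygotes without double-heterozygote replicate 3. The dim signals of groups 10 to 13 limit what their ratios can show.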
